A study of Mus musculus with 30 samples.

Results

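The 40 genes described here encode chaperones and folding enzymes of the endoplasmic reticulum (ER) and proteins of ER-associated degradation (ERAD). They were chosen by symbol for these roles. All 40 passed the filter on dim probe sets and are among the 12183 genes tested. By role they comprise 12 genes of the Hsp70 and Hsp90 class with their partners, 3 of the lectin cycle, 9 of disulfide chemistry, 3 prolyl isomerases, 11 of ERAD, and Ufm1 and Ckap4. Levels were measured on 30 Affymetrix mouse expression arrays in 10 groups of 3, each replicate being B cells from 1 mouse. All cells were resting mature splenic B cells of C57BL/6, B1-8i mice at the start. Wild-type cells were Irf4+/+. The cells called KO here were Irf4-/- and held an Irf4 gene inducible with doxycycline (DOX), driven by a promoter that the labels do not name. Both genotypes were taken unstimulated (day 0), and after 1 and 3 days with CD40L, IL-2, IL-4 and IL-5, to which KO cultures received DOX at 0, 16 or 100 ng/mL (zero, low and high DOX). The series text says that low and high DOX give few and many plasma cells, and that in each group 1 replicate of the 3 was made at another time, without saying which. In every group, zero DOX at days 1 and 3 included, KO cells thus lack the germline Irf4 gene, and zero DOX differs from high DOX only in the drug. No wild-type culture received DOX, so effects of the drug and of Irf4 cannot be told apart by dose alone.

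The ER of a B cell folds membrane immunoglobulin, and that of a plasma cell folds secreted antibody. Hsp70 and Hsp90 class chaperones hold unfolded chains, protein disulfide isomerases form and exchange their disulfide bonds, and calnexin and calreticulin bind their glycans. Chains that fail to fold are trimmed, pulled back through the ER membrane and degraded by the proteasome, which is ERAD. The unfolded protein response raises many of these genes through the transcription factors Atf6 and Xbp1, and Irf4 is a transcription factor needed for plasma cell formation.

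The promoters of these genes were searched for short elements bound by factors of the unfolded protein response, and the copies below are shown because the response of their genes is described further on. Windows from 250 bases before to 50 bases after the transcript start (RefSeq, build GRCm38.p6) were held for 35 of the 40 genes. Some genes had several annotated starts (43 windows in all), and a gene holds an element if any of its windows does. Both strands were searched for the ER stress response element ERSE (CCAAT, any 9 bases, CCACG), for ERSE-II (ATTGG, any 1 base, CCACG) and for TGACGTG, the core of the unfolded protein response element. Capitals mark the match, and a match on the opposite strand appears as its reverse complement. Each line is read 5′ to 3′ on the strand of the gene. The first 6 lines hold ERSE, the next 2 ERSE-II and the last 3 TGACGTG.
Hspa5 (chr2:34772015-34772053, plus strand): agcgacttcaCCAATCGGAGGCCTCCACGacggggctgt
Hsp90b1 (chr10:86705523-86705666, minus strand): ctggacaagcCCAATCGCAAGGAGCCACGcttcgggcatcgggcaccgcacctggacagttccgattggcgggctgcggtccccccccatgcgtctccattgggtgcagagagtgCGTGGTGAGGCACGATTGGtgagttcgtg
Pdia6 (chr12:17266481-17266519, plus strand): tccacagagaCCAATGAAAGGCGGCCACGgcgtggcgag
Creld2 (chr15:88819510-88819548, plus strand): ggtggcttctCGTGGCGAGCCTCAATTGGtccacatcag
Derl3 (chr10:75893232-75893270, plus strand): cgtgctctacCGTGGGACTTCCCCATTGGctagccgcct
Ero1lb (chr13:12565672-12565710, plus strand): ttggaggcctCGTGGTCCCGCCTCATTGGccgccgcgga
Herpud1 (chr8:94386367-94386397, plus strand): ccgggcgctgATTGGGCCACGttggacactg
Dnajb11 (chr16:22857842-22857872, plus strand): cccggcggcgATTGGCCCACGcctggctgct
Txndc5 (chr13:38528030-38528068, minus strand): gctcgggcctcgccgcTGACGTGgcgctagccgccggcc
Txndc11 (chr16:11134561-11134650, minus strand): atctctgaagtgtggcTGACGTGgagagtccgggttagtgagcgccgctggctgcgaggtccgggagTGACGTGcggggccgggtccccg
Fkbp11 (chr15:98727605-98727643, minus strand): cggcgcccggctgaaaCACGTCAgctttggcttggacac

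ERSE lay in the window of 10 of the 35 genes (28.6%), namely Hspa5, Hsp90b1, Dnajc3, Creld2, Calr, Canx, Pdia6, Ero1lb, Derl3 and Syvn1. Over all 27025 genes with a window the share was 0.137% (37 genes), and over the 9852 tested genes with one it was 0.152% (15 genes). ERSE-II lay in the windows of Herpud1 and Dnajb11, against 12 of all genes. TGACGTG lay in those of Hspa5, Txndc5, Txndc11 and Fkbp11 (11.4%, against 2.22% of all genes and 3.23% of tested genes). Txndc5, Txndc11 and Fkbp11 had 3, 2 and 2 windows, and only 1 window of each held TGACGTG. Which start these cells use was not tested. The shorter CCACG, which both ERSE and ERSE-II contain, was found for 32 of the 35 genes, but also for 35.5% of all genes and 50.8% of those tested. The median GC content of the members' windows was 63.0%, against 60.3% for tested genes, and its part in these shares was not tested. The elements were picked because factors of the unfolded protein response, which raises many of these genes, bind them. The shares are thus a description and no independent test. The first base of the element lay 65 bases before the start in Hspa5, 98 in Pdia6, 126 in Creld2, 156 in Derl3 and 201 in Ero1lb, and Hsp90b1 held a pair of copies, at 212 and 107 bases.

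**Figure D1:**
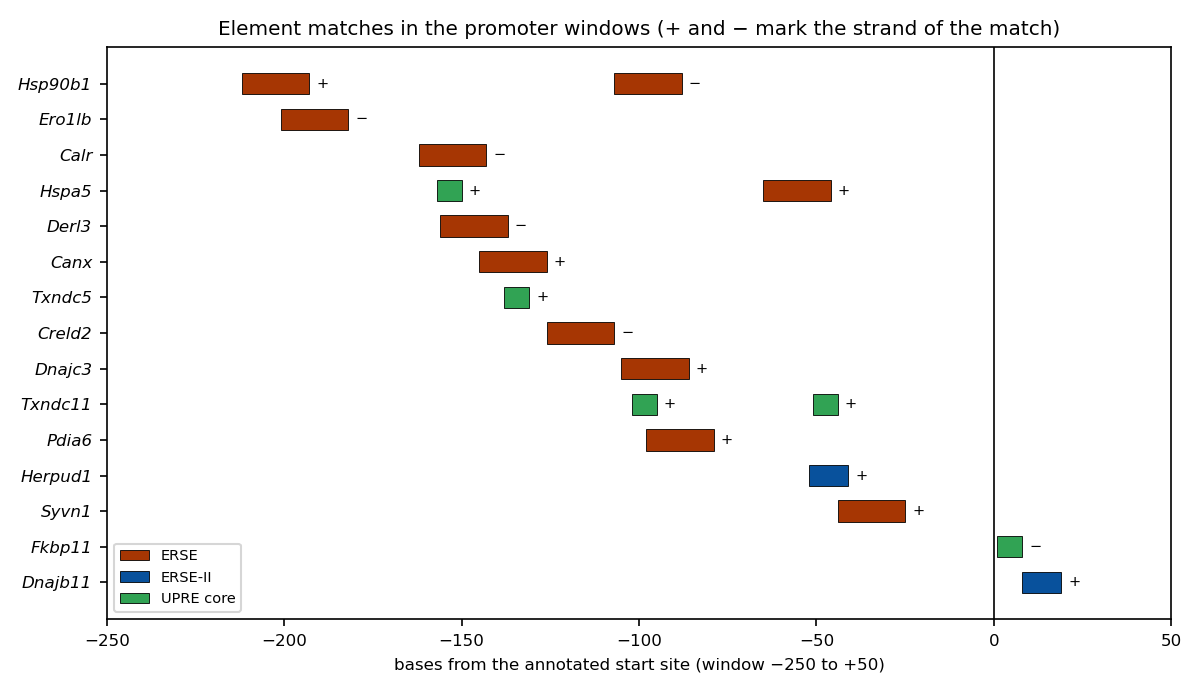
Matches to ERSE, ERSE-II and TGACGTG (UPRE core) in the promoter windows of the 15 members that hold one, in bases from the annotated start (horizontal axis), with 1 row per gene, 1 box per match to scale and its strand as + or −. Boxes before the start begin at most 212 bases from it, and those of Dnajb11 and Fkbp11 lie just after it.

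Levels below are log2(intensity + 16) of 1 probe set per gene, that with the highest mean, and differences are log2 values of the first group minus the second, which understate the change of dim genes. A gene is called higher or lower at a Benjamini-Hochberg adjusted p under 0.05 over all genes tested, in a limma fit to all 30 arrays. In bulk RNA, fewer cells of a type and less RNA per cell cannot be told apart. Array medians lay between 171 and 200 intensity units, and 3 arrays against 3 allow no exact p below 0.1. An Irf4 probe set followed DOX at day 3, at 7.34 to 7.68 without it, 12.94 to 13.09 at low and 13.53 to 13.66 at high DOX. It read 7.23 to 7.39 in wild type, and the other Irf4 set stayed between 10.77 and 13.22 on all arrays, so neither checks the deletion. At day 1 the array labelled KO zero DOX replicate 2 read 10.77 (others 7.84 and 7.80) and that labelled KO low DOX replicate 2 read 7.69 (others 11.17 and 10.89), both against their labels. Low DOX at day 1 is therefore not compared, and day 1 results of KO cells are also given without both arrays. By their Xist level KO replicates 1 and 2 were male, and KO replicate 3 and all wild-type replicates female.

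Nearly the whole set was higher with high DOX at day 3. Compared with zero DOX, 37 of the 40 genes were higher, as were 24.4% of all genes tested, and Ero1lb alone was lower (24.2% of all genes). The median difference was 0.73, against 0.004 over all genes, and 12 members changed at least 2-fold (4.85% of all genes). The Fkbp11, Ckap4, Txndc11, Derl3 and Txndc5 transcripts rose most, by 4.17-fold to 7.98-fold. Every role took part: 11 of 12 Hsp70 and Hsp90 class genes and partners were higher (median 0.93), as were all 3 of the lectin cycle (0.43), 7 of 9 of disulfide chemistry (0.83), all 3 prolyl isomerases (0.82) and all 11 of ERAD (0.72). Hspa13 and Pdia5 were not called.

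Among the Hsp70 and Hsp90 class, Hspa5 (BiP) is the ER Hsp70 first found bound to immunoglobulin heavy chains. From zero to high DOX it rose by less than the median of its class (0.93). Its levels at day 3 were 13.37, 13.24 and 13.27 in zero DOX, 13.78, 13.70 and 13.60 in low DOX, 13.89, 13.84 and 13.79 in high DOX, and 13.45, 13.33 and 13.42 in wild type. The high DOX arrays lay above all others of that day and the zero DOX arrays overlapped wild type. The difference of high from zero DOX was 0.54 (SE 0.060, adjusted p = 7.01e-08). Hsp90b1 (Grp94), the ER Hsp90, read 12.84, 12.78 and 12.66 in zero, 13.61, 13.47 and 13.32 in low and 13.69, 13.71 and 13.65 in high DOX. Its 3 dose groups did not overlap, and high exceeded zero DOX by 0.92 (SE 0.081, adjusted p = 1.65e-09).

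The partners of Hspa5 rose by 0.44 to 1.56. Hyou1 (Grp170), which exchanges the nucleotide of Hspa5, read 10.55, 10.46 and 10.49 in zero, 11.73, 11.75 and 11.36 in low and 12.15, 12.16 and 11.87 in high DOX, against 11.46, 11.18 and 11.36 in wild type. Zero DOX lay below every other day 3 array and high DOX above every one, a difference of 1.56 (SE 0.090, adjusted p = 1.19e-12). Creld2, an ER protein induced by ER stress, read 10.90, 10.83 and 10.80 in zero, 12.11, 12.11 and 11.77 in low and 12.41, 12.42 and 12.10 in high DOX. Replicate 3 of high DOX fell within the low DOX group, while both stood clear of zero DOX, from which high DOX differed by 1.47 (SE 0.10, adjusted p = 2.61e-11). For Sdf2l1, a partner of Hspa5 and its J proteins, the zero DOX arrays gave 11.42, 11.20 and 11.28, low DOX 12.31, 12.24 and 12.10, and high DOX 12.49, 12.49 and 12.32. Here most of the step of 1.13 lay between zero and low DOX. Dnajb9 (ERdj4), a J protein that brings Hspa5 to misfolded chains and to the sensor Ire1, read 10.11, 10.04 and 9.90 in zero, 10.60, 10.50 and 10.14 in low and 11.06, 11.23 and 10.86 in high DOX. Its larger step lay between low and high DOX, and replicate 3 was lowest in each of these groups. High exceeded zero DOX by 1.04 (SE 0.094, adjusted p = 3.16e-09). Manf, a small ER protein that binds Hspa5 and can be secreted, rose by 1.02, Dnajc3 (P58IPK), a J protein, by 0.93, Dnajc10 (ERdj5), a disulfide reductase, by 0.59, Dnajb11 (ERdj3), also a J protein, by 0.58, and Sil1, the other nucleotide exchanger of Hspa5, by 0.44.

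Hspa13 (Stch), an Hsp70 relative of the ER, was the member whose probe sets disagreed most. Its set of highest mean read 10.71, 10.88 and 10.84 in zero and 10.66, 10.51 and 10.52 in high DOX, a difference of -0.25 (adjusted p = 0.0615). The other 3 sets of Hspa13 rose by 1.45, 0.76 and 1.62. No direction is therefore given for this gene in high against zero DOX, and its calls elsewhere are those of the set used.

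In the lectin cycle the changes were small. Canx (calnexin), the membrane lectin that retains glycoproteins, read 12.64, 12.58 and 12.64 in zero, 13.01, 12.85 and 12.85 in low and 13.00, 12.95 and 12.98 in high DOX. Low and high DOX overlapped, and both lay above zero DOX. The rise from zero to high was 0.36 (SE 0.072, adjusted p = 2.21e-04) for Canx, 0.43 for Calr (calreticulin), its soluble relative, and 0.54 for Uggt1, which puts glucose back on chains that are not yet folded.

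Of the disulfide genes, Txndc11, a thioredoxin-domain protein of the ER membrane, read 8.53, 8.52 and 8.50 in zero, 10.32, 10.05 and 9.77 in low and 11.12, 11.06 and 11.06 in high DOX, against 9.90, 9.90 and 9.86 in wild type. Its zero DOX arrays were its lowest of all 30, and high exceeded zero DOX by 2.57 (SE 0.079, adjusted p = 2.27e-17). Txndc5 (ERp46), a protein disulfide isomerase, read 10.92, 11.12 and 11.04 in zero, 12.74, 12.59 and 12.58 in low and 13.08, 13.03 and 13.16 in high DOX, against 12.85, 12.82 and 12.78 in wild type. Most of its rise of 2.06 (SE 0.070, adjusted p = 1.29e-16) was reached at low DOX. Smaller rises were those of Pdia6 (1.00), P4hb, the classical protein disulfide isomerase (0.88), Pdia4 (0.83), Pdia3, the isomerase that works with calnexin and calreticulin (0.44), and Erp44, which retrieves unassembled IgM subunits (0.20). Pdia4 stood at 11.81, 11.69 and 11.70 in zero, 12.28, 12.20 and 12.18 in low and 12.58, 12.59 and 12.53 in high DOX, in 3 separate steps, but its other probe set differed by only -0.04 between high and zero DOX. Ero1lb, an oxidase that recharges disulfide isomerases, read 12.35, 12.45 and 12.37 in zero and 12.19, 12.33 and 12.17 in high DOX. This is its call as lower (-0.16, SE 0.065, adjusted p = 0.0490), while its other set rose by 0.59.

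Fkbp11, a prolyl isomerase abundant in secretory cells, had the largest difference of all members on the probe set used. It read 7.09, 7.62 and 7.50 in zero, 9.32, 9.29 and 9.08 in low and 10.39, 10.44 and 10.37 in high DOX, against 9.07, 9.13 and 9.08 in wild type. Low DOX arrays overlapped wild type, and high DOX arrays stood apart above both. High exceeded zero DOX by 3.00 (SE 0.19, adjusted p = 6.36e-12). The rise starts from a dim level. All zero DOX arrays lay below the filter's intensity level (188), and the wild-type, low and high DOX arrays of day 3 above it. The set was chosen by its mean over all arrays, these groups included, and a stricter filter dropped it. A second, steadier Fkbp11 probe set differed by 0.10. The choice of the set and its loss under the stricter filter hold for every Fkbp11 difference given here. Fkbp2 rose by 0.82 and Ppib (cyclophilin B) by 0.30.

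All 11 ERAD genes were higher. Derl3, a derlin of secretory cells that helps draw chains out of the ER, read 8.82, 8.87 and 8.13 in zero, 10.64, 10.58 and 9.90 in low and 11.30, 11.28 and 10.83 in high DOX. The dose groups did not overlap, although KO replicate 3 was the lowest array in each of the 7 KO groups. High exceeded zero DOX by 2.53 (SE 0.31, adjusted p = 2.68e-07). Edem2, which starts the trimming of mannose that marks a chain for degradation, read 9.29, 9.38 and 9.26 in zero, 10.37, 10.39 and 10.06 in low and 11.09, 11.02 and 10.70 in high DOX. This rise of 1.62 (SE 0.093, adjusted p = 1.03e-12) was the second largest of the ERAD genes. Its relatives Edem3 and Edem1 rose by 0.96 and 0.73. The levels of Edem1 were 12.00, 11.99 and 11.97 in zero, 12.51, 12.43 and 12.35 in low and 12.77, 12.72 and 12.67 in high DOX, without overlap. The ubiquitin ligase Syvn1 (Hrd1) changed by only 0.20 (adjusted p = 0.0380) while its scaffold Sel1l rose by 0.89. Herpud1, which organises that ligase complex, read 11.44, 11.40 and 11.50 in zero, 11.77, 11.77 and 11.74 in low and 12.06, 12.08 and 11.94 in high DOX, a rise of 0.58. Os9, a lectin that hands glycoproteins to Sel1l, and Selenos, a membrane partner of the derlins, each rose by 0.72. Derl1 and Derl2 rose by 0.35 and 0.22.

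Outside these classes, Ckap4 (Climp-63), a membrane protein that shapes ER sheets, read 9.31, 9.08 and 9.31 in zero, 11.26, 10.86 and 10.68 in low and 12.30, 12.17 and 12.10 in high DOX, against 10.75, 10.87 and 10.68 in wild type. Low DOX overlapped wild type, with zero DOX far below and high DOX far above, a difference of 2.95 (SE 0.15, adjusted p = 1.84e-13). Its 3 other probe sets rose by 2.62 to 3.02. Ufm1, a ubiquitin-like modifier used at the ER, rose by 0.59.

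**Figure D2:**
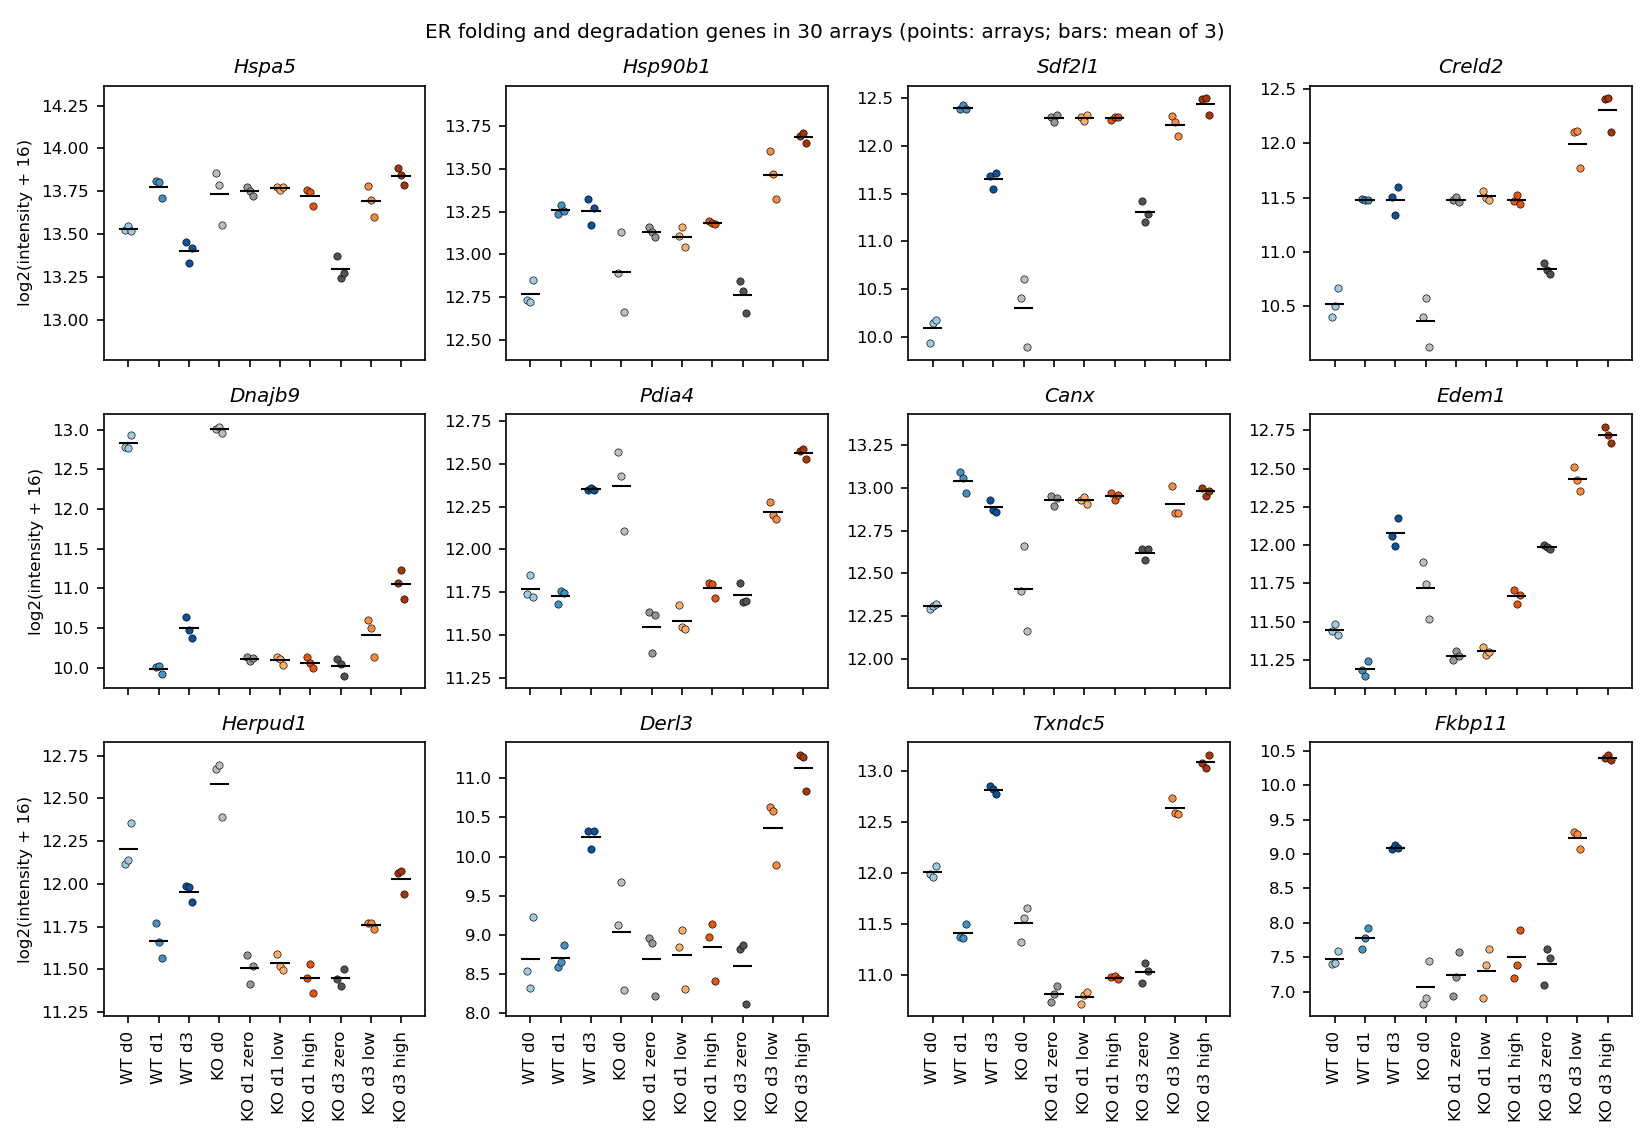
Levels, log2(intensity + 16), of 12 members on every array (vertical axes, which differ between genes), in 10 groups by genotype (WT, wild type), day and DOX dose, with 1 point per array and a bar at the mean of 3. At day 3 the zero DOX arrays of Fkbp11, Txndc5, Derl3 and Edem1 lie below, and the high DOX arrays above, every low DOX array, while Dnajb9 is highest in unstimulated cells.

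Markers of cell types moved with DOX too. Of 8 plasma cell markers, 7 were higher in high than in zero DOX (median 3.09), and their summed intensity was 9636 to 10850 in zero, 22180 to 30790 in low and 35410 to 41550 in high DOX, against 28870 to 30080 in wild type. That list holds Xbp1, Bhlha15 and Irf4. Wherever it is counted or summed, Irf4 is read from its set that does not follow DOX. That set averaged 11.10, 11.17 and 11.19 in zero, low and high DOX at day 3. All 7 B cell markers were lower (median -0.75), with sums of 60290 to 72320 in zero and 36350 to 42290 in high DOX. Of 15 myeloid markers 11 were lower, with sums of 9686 to 17710 in zero, 3217 to 4006 in high DOX and 3423 to 3724 in wild type, and 5 of 6 natural killer cell markers were lower as well (sums over 7, with 1 dim marker, of 5199 to 9659 against 1169 to 1949). Of 5 T cell markers 3 were lower, and of 4 erythroid and platelet markers 2. The part of these shifts in the members' differences was not tested, and no marker can be read as 0 on an array.

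The order of the doses held gene by gene. In 32 of the 40 genes, zero, low and high DOX at day 3 formed 3 rising steps with no overlap of arrays, which 7.86% of all genes did. The other 8 were Hspa13, Creld2, Calr, Canx, Pdia5, Ero1lb, Derl2 and Syvn1. In 24 members every high DOX array of day 3 lay above all 27 other arrays of the series (4.88% of all genes). Only 8 members had their highest group mean elsewhere: Dnajb9, Ero1lb, Derl1 and Herpud1 in unstimulated KO cells, Canx and Ufm1 in wild type at day 1, Erp44 in wild type at day 3 and Hspa13 in zero DOX at day 3.

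Both steps of dose carried differences. Low DOX against zero gave 33 members higher and 2 lower (17.6% and 18.2% of all genes), with a median of 0.43. The 6 that rose most were Fkbp11 (1.83), Derl3 (1.77), Ckap4 (1.70), Txndc5 (1.61), Txndc11 (1.53) and Creld2 (1.16), and those called lower were Hspa13 (-0.28) and Ero1lb (-0.17). Other sets of Hspa13 rose (0.88 and 1.05), and the other set of Ero1lb differed by 0.18 without a call. With a replicate block within KO, the Hspa13 call was lost (adjusted p = 0.0567). High DOX against low gave 26 members higher (6.69% of all genes), with a median of 0.26, and limma called 0 lower, also at an unadjusted p under 0.05 (6.09% of all genes were lower). Ckap4 (1.26, SE 0.15, adjusted p = 7.12e-06), Fkbp11 (1.17, SE 0.19, adjusted p = 1.64e-04) and Txndc11 (1.03, SE 0.079, adjusted p = 2.02e-08) moved most among the genes called, before Edem2 (0.66), Dnajb9 (0.64) and Txndc5 (0.45). Hspa5 (0.15), Hsp90b1 (0.22), Sdf2l1 (0.22) and Derl3 (0.76, adjusted p = 0.110) were not called. With the block, Derl3 was called (adjusted p = 3.46e-04), as were Hsp90b1 (0.0304) and Hspa5 (0.0412), and the count was 29. The count fell to 17 without high DOX replicate 1 or 2 and to 14 without low DOX replicate 3, and to 17 when arrays were centred on their medians (4.21% of all genes higher).

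**Figure D3:**
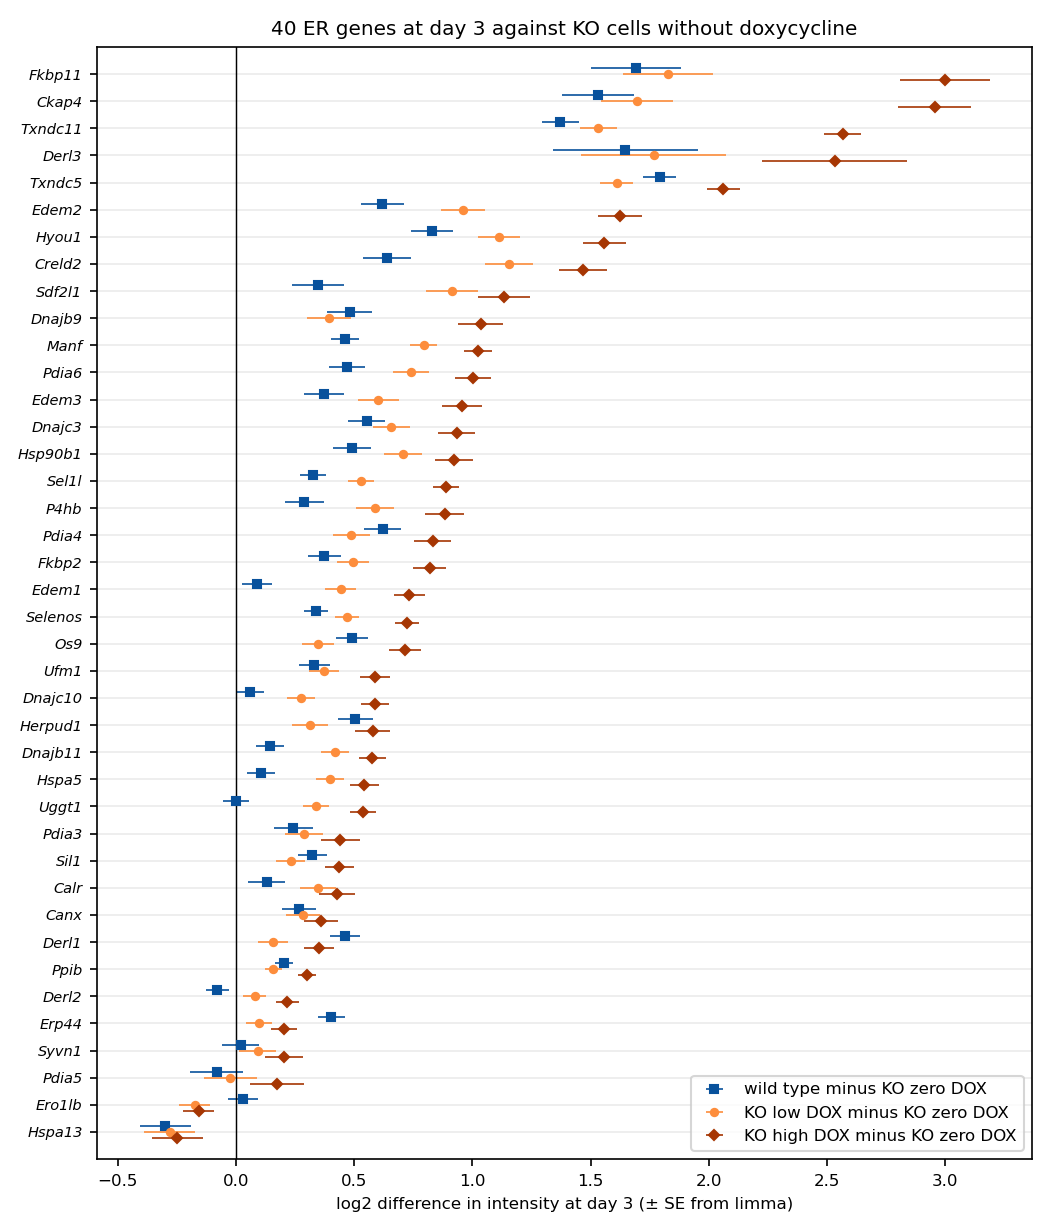
Differences of the 40 members at day 3 (horizontal axis, log2, bars of 1 SE from limma) of wild type, KO low DOX and KO high DOX from KO zero DOX, with genes ordered by the high DOX value. Fkbp11, Ckap4, Txndc11, Derl3 and Txndc5 lie farthest from 0 in all 3, which share the zero DOX arrays; wild type is here the first group, so its signs are opposite to those of KO against wild type.

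Without DOX, KO cells at day 3 had less of most of these transcripts than wild type. Of the 40 genes 29 were lower (15.8% of all genes) and 1, Hspa13, was higher (19% of all genes), with a median of -0.36 against 0.004 over all genes. Txndc5 (-1.79, SE 0.070, adjusted p = 8.97e-15), Fkbp11 (-1.69, SE 0.19, adjusted p = 2.75e-07), Derl3 (-1.65, SE 0.31, adjusted p = 1.76e-04), Ckap4 (-1.53, SE 0.15, adjusted p = 5.04e-08) and Txndc11 (-1.37, SE 0.079, adjusted p = 7.27e-12) fell at least 2-fold (2.74% of all genes changed that much). Hyou1 followed, at -0.83 (SE 0.090, adjusted p = 1.66e-07). The disulfide genes (7 of 9 lower), prolyl isomerases (all 3) and ERAD genes (8 of 11) had medians of -0.40, -0.37 and -0.37. The Hsp70 and Hsp90 class had 8 of 12 lower and a median of -0.40. The 10 genes that were not called included Hspa5 (-0.10), Dnajb11 (-0.14), Calr (-0.13), Edem1 (-0.09), Uggt1 and Syvn1. For Edem1 the other probe set was lower by 0.99, whereas the second set of Fkbp11 (-0.01) and of Pdia4 (-0.03) hardly differed, and 3 other sets of Hspa13 were lower (-0.72, -0.33 and -0.72), against its call. Beside these, 7 of 8 plasma cell markers were lower in KO cells (median -2.02), while 11 of 15 myeloid markers (median 1.05) and 5 of 6 natural killer cell markers were higher, and their part was not tested. Sex also differed between the genotypes. With a term for it, 32 members were called. Only KO replicate 3 against KO replicates 1 and 2 informs that term. Sex thus cannot be told apart from other differences of that replicate.

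Low and high DOX were set against wild type at the same day. In low DOX 17 members were higher and 5 lower (18.9% and 15.3% of all genes), with a median of 0.13. These 22 calls fell to 14 without low DOX replicate 1 or wild-type replicate 2. Sdf2l1 (0.57), Creld2 (0.52), Edem1 (0.35) and Edem2 (0.34) were higher, and Erp44 (-0.31), Derl1 (-0.30), Ero1lb (-0.20) and Herpud1 (-0.19) lower. In high DOX 30 were higher and 2 lower (22.1% and 19% of all genes), with a median of 0.43. Ckap4 (1.42), Fkbp11 (1.31), Txndc11 (1.19) and Edem2 (1.00) lay above wild type by 2-fold or more (2.68% of all genes differed that much), and Erp44 (-0.20) and Ero1lb (-0.19) below it. Derl3 was called at 0.89 (adjusted p = 0.0229), a call that was lost with a sex term (0.41, adjusted p = 0.0646), without high DOX replicate 1 or 2, or without wild-type replicate 2 (adjusted p from 0.0735 to 0.0812). These comparisons share the wild-type arrays.

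Before stimulation, KO cells at day 0 had 7 members higher and 9 lower (13.1% and 18.4% of all genes), shares near those over all genes. Of these 16 calls 4 were left with only those groups in the fit, and leaving out 1 array gave 11 to 20. The higher ones were led by Pdia4 (0.60), Herpud1 (0.38), P4hb (0.31) and Edem1 (0.27), the lower ones by Fkbp2 (-0.52), Txndc5 (-0.49), Txndc11 (-0.37) and Dnajc10 (-0.33). Txndc5 read 11.99, 11.96 and 12.07 in wild type and 11.32, 11.56 and 11.65 in KO, without overlap. Pdia4 read 11.74, 11.85 and 11.72 against 12.57, 12.43 and 12.11. Of 15 myeloid markers 12 were higher in these KO cells (median 1.43), as were 4 of 6 natural killer cell markers, and 4 of 8 plasma cell markers were lower, by up to -7.05. The summed plasma cell markers stood at 23100 to 29920 in wild type and 10090 to 13770 in KO, and the part of these markers was not tested.

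At day 1, 3 members were higher and 10 lower in KO zero DOX than in wild type (33.9% and 15.7% of all genes). The 3 higher were Hspa13 (1.08, with another set at -0.43), Pdia5 (0.66) and Selenos (0.14). Ckap4 (-0.66), Txndc5 (-0.60), Fkbp11 (-0.53, with its other set at 0.25) and Txndc11 (-0.34) led those lower. Among the rest of the 10, other sets of Ufm1 (0.22 and 0.45, against -0.23) and Erp44 (0.39, against -0.32) were higher. Txndc5 read 11.37, 11.36 and 11.50 in wild type and 10.74, 10.81 and 10.89 in KO, which do not overlap. Hspa5, Hsp90b1, Creld2, Derl3 and Edem2 differed by 0.13 or less and were not called. Without both arrays that go against their labels, 9 members were called in all. With arrays centred on their medians, 2 were higher and 20 lower (19.7% and 32.3% of all genes). Of the markers, 14 of 15 myeloid (median 1.00), 5 of 5 T cell and 4 of 6 natural killer cell markers were higher in KO cells, and of 8 plasma cell markers 1 was higher and 3 were lower, by up to -4.16. Their part was not tested.

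High DOX had hardly touched the set at day 1, although the Irf4 probe set was then at 12.68 to 13.10. Compared with zero DOX limma called Edem1 higher and 0 members lower (1.26% and 1.49% of all genes), against 5 and 1 at an unadjusted p under 0.05. Edem1 read 11.71, 11.61 and 11.67 in high and 11.25, 11.31 and 11.28 in zero DOX, without overlap. It differed by 0.39 (SE 0.065, adjusted p = 1.41e-03), and by 0.48 on its other probe set. Without both doubtful arrays Edem1 was still the 1 member called (0.40), and with the block within KO 2 were called.

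The set also moved in wild-type cells over the first day of stimulation. No day 1 group without stimulation was measured in either genotype, so time in culture and the stimuli cannot be told apart. From day 0 to day 1, 20 members rose and 13 fell (33.9% and 47.6% of all genes), with 24 and 7 on centred arrays (40.7% and 37.2%). Chaperones and their partners rose, 9 of 12 with a median of 0.51, as did all 3 lectin cycle genes (0.50), whereas of the 11 ERAD genes 2 rose and 6 fell (-0.25). The gene that rose most was Sdf2l1, from 9.94, 10.15 and 10.18 to 12.38, 12.42 and 12.39 (2.31, SE 0.11, adjusted p = 2.33e-15). Manf rose from 11.86, 11.97 and 11.99 to 13.11, 13.18 and 13.19 (1.22). Pdia3 rose by 1.32 and Pdia6 by 1.19, and Ufm1 by 1.42 on a set that 3 of its 4 other sets contradict (-0.35, -0.24 and -0.51, against 0.63). Dnajb9 fell most, from 12.78, 12.77 and 12.93 to 10.01, 10.02 and 9.92 (-2.84, SE 0.094, adjusted p = 3.33e-18). Ero1lb (-1.14), Hspa13 (-0.89) and Derl1 (-0.82) fell as well, but all 3 other sets of Hspa13 rose (1.18, 0.44 and 0.88), and those of Derl1 differed (0.13, 0.80 and -0.80). Opposite sets were also called for Uggt1 (0.48 and -0.53), Sel1l (0.63 and -0.38), Erp44 (0.62 and -0.61) and Edem1 (-0.25 and 0.60). Beside these changes, 6 of 7 B cell markers (median -0.72), 6 of 8 plasma cell markers, 9 of 15 myeloid, 5 of 6 natural killer cell and 5 of 5 T cell markers fell, and their part was not tested.

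KO cells without DOX also changed over the first day of stimulation. From day 0 to day 1, 22 members rose and 11 fell (39.8% and 30.1% of all genes), with 19 and 9 on centred arrays (39.3% and 31%). Sdf2l1 (1.99), Manf (1.27), Ufm1 (1.26, with another set at -0.27) and Fkbp2 (1.22) led, with Dnajb9 (-2.89), Derl1 (-1.25), Ero1lb (-1.15) and Herpud1 (-1.08) lowest. Dnajb9 went from 13.01, 13.04 and 12.96 to 10.14, 10.08 and 10.13. Sel1l rose by 0.63 on 1 set and fell by 0.31 on another. Without both arrays against their labels 32 were called.

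Genotypes parted between day 1 and day 3. In wild type 26 members rose and 6 fell (43.3% and 26.2% of all genes), with 20 and 10 on centred arrays (30.5% and 34.4%). ERAD genes now rose, 10 of 11 with a median of 0.35, and so did 6 of 9 disulfide genes (0.47) and all 3 prolyl isomerases (0.26), while of the Hsp70 and Hsp90 class 5 rose and 4 fell. Derl3 went from 8.59, 8.66 and 8.88 to 10.33, 10.10 and 10.33 (1.54, SE 0.31, adjusted p = 1.16e-04), and Txndc5 from 11.37, 11.36 and 11.50 to 12.85, 12.82 and 12.78 (1.40, SE 0.070, adjusted p = 4.39e-14). Fkbp11 (1.32), Hspa13 (1.17), Ero1lb (1.04) and Edem1 (0.88) rose too. Sdf2l1 fell by 0.75, Ufm1 by 0.49, on a set that 2 others contradict (0.19 and 0.40), Hspa5 by 0.37, Pdia6 by 0.32, Manf by 0.31 and Hyou1 by 0.25. All 6 had been called higher from day 0 to day 1. Another set of Dnajc3 fell (-0.20) while that used rose (0.38). Beside these changes 7 of 8 plasma cell markers rose (median 1.70), as did 6 of 7 B cell and 4 of 6 natural killer cell markers, and their part was not tested.

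In KO cells without DOX, 9 members rose and 13 fell from day 1 to day 3 (25.9% and 26.7% of all genes), with a median of -0.08. Ero1lb (0.94), Edem1 (0.71), Edem3 (0.52) and Hspa13 (0.39) were called higher, although another set of Hspa13 was lower (-0.30), and Sdf2l1 (-0.99), Hyou1 (-0.93), Manf (-0.65) and Creld2 (-0.64) fell. Fkbp11 (0.16), Derl3 (-0.09) and Ckap4 (-0.08) were not called. Of the plasma cell markers 1 rose and 2 fell, and 5 of 6 natural killer cell and 6 of 15 myeloid markers rose, whose part was not tested. Without both doubtful arrays 20 were called. In KO cells with high DOX, 34 members rose (23% of all genes) and limma called 0 lower, also at an unadjusted p under 0.05 (27% of all genes fell). Fkbp11 (2.90), Ckap4 (2.48), Derl3 (2.29) and Txndc5 (2.11) led, and the median was 0.57. Derl2 rose on the set used (0.26) and fell on another (-0.22). With them 7 of 8 plasma cell markers rose (median 2.81), whose part was not tested.

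The differences between these time courses were tested as interactions. The change from day 1 to day 3 was smaller in KO zero DOX than in wild type for 21 members (20.2% of all genes), and larger for 0 in limma, also at an unadjusted p under 0.05 (9% of all genes). On centred arrays it was smaller for 16 members (10.9% of all genes) and larger for 0 (20.1% of all genes). Derl3 (-1.63, SE 0.43, adjusted p = 7.83e-03), Txndc5 (-1.19), Fkbp11 (-1.16) and Txndc11 (-1.03) differed most. It was larger in high than in zero DOX for 37 members (12.4% of all genes) and smaller for 0 of them, also unadjusted (13.8% of all genes), led by Fkbp11 (2.74), Ckap4 (2.56), Derl3 (2.38) and Txndc11 (2.37). Without the arrays against their labels these counts were 22 and 36.

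**Figure D4:**
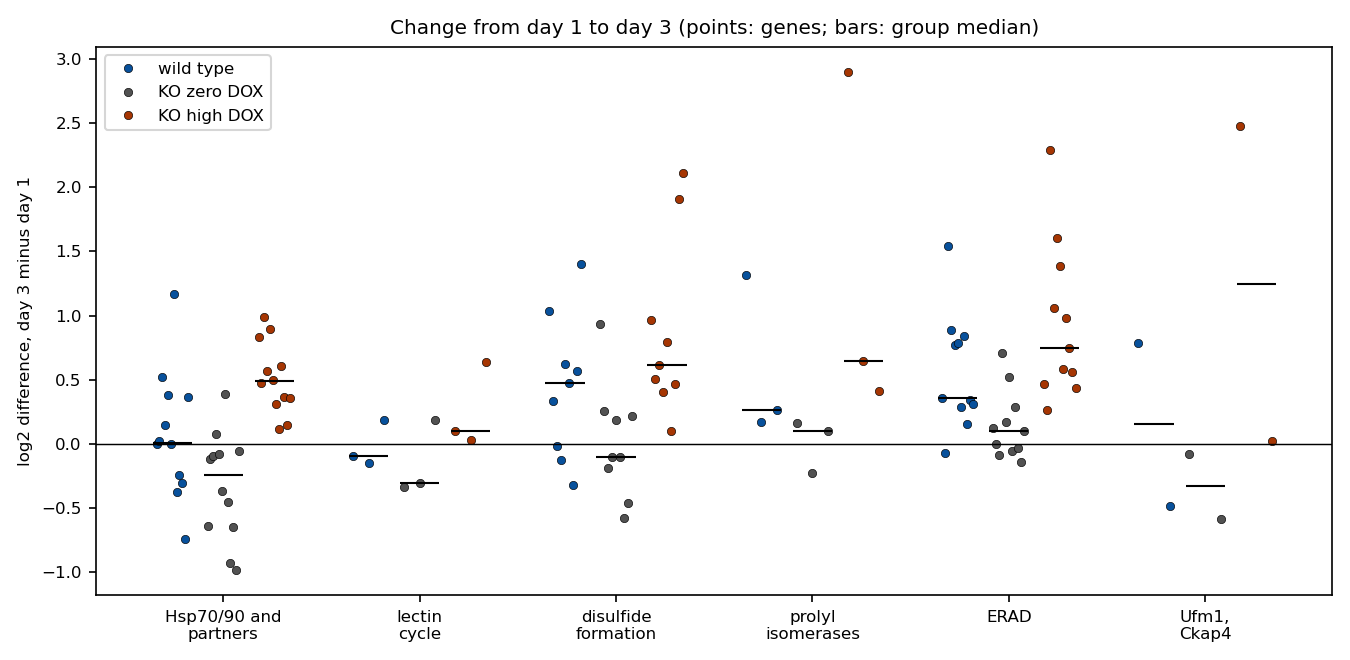
Change from day 1 to day 3 (vertical axis, log2) of each member by role (horizontal axis), for wild type, KO zero DOX and KO high DOX, with 1 point per gene and a bar at the median. In the ERAD column the medians are 0.35 in wild type, 0.10 in zero DOX and 0.75 in high DOX, and the 4 highest points of high DOX are Fkbp11, Ckap4, Derl3 and Txndc5.

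Other genes of secretion and protein folding were counted the same way at day 3, high against zero DOX. There 24.4% of all genes were higher and 24.2% lower. Of 24 other ER folding genes 14 were higher and 3 lower (median 0.23), among them Lman1, an ER to Golgi cargo receptor (1.74), Ero1a (1.49) and Prdx4 (1.16). Of 29 other ERAD genes 20 were higher and 3 lower (median 0.29), with Erlin1 (1.51) and Man1b1 (1.36) on top. Of 17 genes listed as sensors and factors of the unfolded protein response 12 were higher and 2 lower (median 0.40). Bhlha15 (4.68), which is also on the plasma cell list, led, before Atf6 (1.50), Wfs1 (1.49) and Eif2ak3 (1.25). Xbp1, on both lists too, rose by 0.94 (adjusted p = 8.74e-10). In KO zero DOX against wild type 9 of these 17 were lower (15.8% of all genes). Bhlha15 differed by -3.15, Eif2ak3 by -0.95, Atf6 by -0.84 and Xbp1 by -0.72. Of 6 ufmylation genes, which attach Ufm1 to proteins, 3 were higher (median 0.29). Cytosolic and mitochondrial chaperones, 34 genes, moved less with dose, 15 higher and 3 lower with a median of 0.15. In wild type 30 of these 34 rose from day 0 to day 1 (median 0.80, 33.9% of all genes rose) and 30 fell from day 1 to day 3 (median -0.49, 26.2% of all genes fell).

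**Figure D5:**
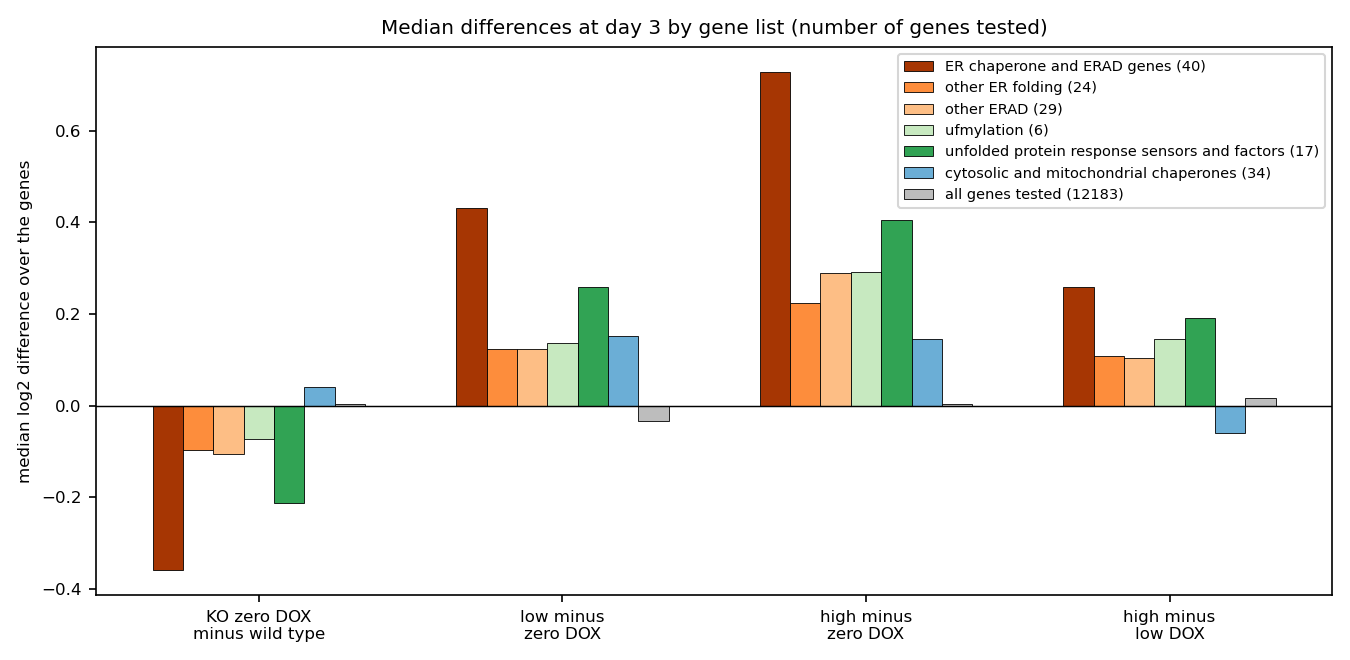
Median difference at day 3 (vertical axis, log2) over the ER chaperone and ERAD genes, 5 other gene lists and all genes tested, for 4 comparisons, with the number of genes in the key. The ER chaperone and ERAD genes have medians of 0.73 in high against zero DOX and -0.36 in KO zero DOX against wild type, while all genes lie at 0.004 in both.

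The elements printed above were set against the responses as a description, with no test. Of the 12 members with ERSE or ERSE-II, 11 were higher and 1 lower in high against zero DOX at day 3 (median 0.58). Of the 23 with a window and neither element 22 were higher (median 0.82), beside 24.4% of all genes higher and 24.2% lower. In high against low DOX the members higher were 4 of 12 (median 0.19) and 18 of 23 (median 0.31), beside 6.69% of all genes. In wild type from day 0 to day 1 the order of the medians turned, at 0.49 with an element (8 rose, 3 fell) and 0.04 without (9 rose, 8 fell). Of all genes 33.9% rose and 47.6% fell over that day. Derl3, with an ERSE, rose by 2.53 with high DOX, whereas Ero1lb, also with one, fell on the set used. Fkbp11, Txndc11 and Txndc5, each with TGACGTG in 1 of its several windows, were among the 5 members that rose most. Hspa5, with both TGACGTG and ERSE, rose by 0.54. Ckap4, also among those 5, had none of the 3 elements in its window, which says only that these letters are not there. Of the 5 other tested genes with ERSE, 1 was higher (Alg12, 0.19) and 2 were lower, and of the 6 other tested genes with ERSE-II, Nucb1 (1.14) and Krtcap2 (0.82) were higher.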

How the data were processed

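Expression was measured on 30 arrays, 3 in each of 10 groups. The authors deposited linear signal intensities that, per the series text, they had normalized in D-Chip with its PM-only model. MAS5 also appears in the submitters' processing notes, but its use is not stated there. Groups came from the labels, and every column matched a sample by title.

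Probe sets with at least 3 of 30 arrays above the table's median intensity (188) were kept. GEO's platform annotation named them; sets annotated to more than 1 symbol or to no symbol were left out. Each gene was read from its kept set of highest mean. Of the 40 genes, 28 had several tested sets, and sets called in the opposite direction are given beside the gene. Intensities plus 16 were put on the log2 scale. limma 3.58.1 (R 4.3.3) fitted 1 mean per group over all 30 arrays (20 residual degrees of freedom, median residual SD 0.0988), 16 comparisons were made, and p-values were adjusted over 12183 genes within each. Promoter windows came from RefSeq (Python 3.11.15, pandas 2.3.3). Arrays give no counts, so their number limits the precision.

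The 40 genes and the other lists were chosen with earlier results of these data known. Genes named are those with the largest called changes whose arrays do not overlap (up to 6 each way in the main day 3 comparisons and in wild type from day 1 to day 3, up to 4 in others), a panel of 12 with all arrays, every member where a count is small, and up to 4 called genes of each other list. A few further members were named after their values were seen.

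Same-numbered KO arrays deviated together in every pair (correlations of 0.30 to 0.858), but wild-type pairs did not (-0.05 to 0.24), nor did wild-type with KO arrays (-0.31 to 0.25). The number was therefore taken to pair KO arrays only, and a block within genotype was added after seeing the data; the labels give individual mice and do not tie cultures to a mouse. The genes with no promoter entry (Hyou1, Manf, Derl1, Hspa13 and Sil1) were not searched.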

Additional observations from a re-analysis of the deposited data

Results flagged for a closer look

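The change from day 1 to day 3 differed between genotypes by a test of the difference itself. It was smaller in KO zero DOX than in wild type for 21 of the 40 members (20.2% of all genes). On the log2 scale it differed by -1.63 for Derl3, -1.19 for Txndc5, -1.16 for Fkbp11 and -1.03 for Txndc11. The same test between high and zero DOX found a larger change in 37 members (12.4% of all genes), with 2.74 for Fkbp11, 2.56 for Ckap4, 2.38 for Derl3 and 2.37 for Txndc11. Both tests use the day 1 zero DOX group, in which 1 array goes against its label.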

How the results depend on the processing

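Over 251 results on named members, 4535 of 4770 values under alternatives kept direction and call, 148 lost the call, 77 gained it and 10 reversed. Reversed were Fkbp11 under a stricter filter of 15 arrays, which drops its responding probe set (-0.47 and -0.14 for day 1 against day 0 in wild type and KO, 0.25 for KO against wild type at day 1, -0.021 for low against zero DOX), and, with the mean of all probe sets, Edem1 (0.18) and Hspa13 (0.40) in wild type from day 0 to day 1, Hspa13 at day 3 (-0.37 against wild type, 0.48 for low against zero DOX) and Ero1lb (0.002 for low and 0.21 for high against zero DOX).

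With every array kept, counts of members called moved past 1.5 times in 4 comparisons, and the cause was not tested. KO zero DOX against wild type at day 1 (13) gave 22 on centred arrays and 25 with array weights. High against low DOX (26) gave 17 on centred arrays and 15 with only those groups in the fit. High against zero DOX at day 1 (1) gave 5 with array weights, 0 with only those groups and 2 with the block within genotype, and KO against wild type at day 0 (16) gave 4 with only those groups. The plain replicate block gave 38 for high against zero DOX, 31 for KO against wild type and 27 for high against low DOX at day 3. Apart from the calls given here and beside the results, the block within genotype, chosen after seeing the data, also called Derl3 in KO zero DOX from day 0 to day 1 (-0.34), Pdia4 from day 1 to day 3 (0.18) and Hspa5 with high DOX over those days (0.12), and changed no other call of a named member between KO groups.

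Leaving out 1 array at a time gave 31 to 32 members in wild type from day 0 to day 1 and 29 to 31 from day 1 to day 3. In KO cells it gave 28 to 32 from day 0 to day 1, 19 to 23 from day 1 to day 3 without DOX and 33 to 34 with high DOX. KO against wild type gave 11 to 20, 9 to 14 and 27 to 30 at days 0, 1 and 3. Dose gave 1 to 2 for high against zero at day 1 (2 without high DOX replicate 2), and at day 3 33 to 35 for low against zero, 36 to 37 for high against zero and 14 to 27 for high against low. Against wild type low DOX gave 14 to 22 (14 without low DOX replicate 1 or wild-type replicate 2) and high DOX 28 to 31. The interactions gave 20 to 23 for genotype and 35 to 37 for high DOX.

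Centring moved the median of all genes from -0.15 to 0.01 in wild type from day 0 to day 1, from 0.12 to -0.01 from day 1 to day 3, from 0.07 to -0.07 for KO against wild type at day 1 and from -0.07 to 0.08 for the genotype interaction. Members higher and lower were then 7 and 5 for KO against wild type at day 0 (13.3% of all genes each way) and 17 and 2 for low DOX against wild type (20.3% and 11.2%).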

Other observations

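Of the 90 tested probe sets of the 40 members, 79 were higher in high against zero DOX at day 3 (23.5% of the 21668 probe sets with 1 symbol, over which limma's p was adjusted), and 63 were lower and 1 higher in KO zero DOX against wild type at that day (16.7% and 18.4%).
In unstimulated cells Dnajb9 stood at 12.77 to 12.93 in wild type and 12.96 to 13.04 in KO, above every stimulated array of either genotype (9.90 to 11.23).
KO replicate 3 was the lowest of the 3 arrays in all 7 KO groups for Hsp90b1, Creld2, Derl3 and Selenos.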
